A study of Mus musculus with 7 samples.

Results

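The 10 genes described here encode enzymes that make serine, pass its carbon to folate, or make proline: Phgdh, Psat1 and Psph of serine synthesis, Shmt1, Shmt2, Mthfd1, Mthfd1l and Mthfd2 of folate one-carbon metabolism, and Aldh18a1 and Pycr1 of proline synthesis. The list was chosen with earlier results of these data known. Probes were found through the RefSeq transcript given for each probe. This gave 14 probes for 9 of the 10 genes, among 13697 named genes tested. No probe was matched to Pycr1, which is not analysed here. Gene expression was measured on 1-colour Agilent arrays in the heart apex of 7 male C57BL/6 mice aged 3 months. All carried p38α flox/flox alleles, in which exons 2 and 3 of the gene for the stress kinase p38α lie between loxP sites. The 3 knockout (KO) mice also carried 1 copy of α-MHC mercremer, a tamoxifen-activated Cre recombinase driven by a promoter active in cardiomyocytes, so other cells of the heart keep their p38α alleles. The 4 control mice are labelled with the floxed alleles alone, so deletion and Cre cannot be told apart. All mice received 500 µg hydroxytamoxifen daily for 10 days from 6 weeks of age, and angiotensin II at 1.5 mg/kg per day from minipumps for 48 hours before the hearts were taken. No group without angiotensin II was analysed here.

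In serine synthesis PHGDH oxidises a glycolytic intermediate, PSAT1 adds the amino group and PSPH removes the phosphate. SHMT1 in the cytosol and SHMT2 in mitochondria then move a carbon from serine to tetrahydrofolate. In mitochondria MTHFD2 and MTHFD1L oxidise that carbon and release it as formate, and in the cytosol MTHFD1 takes formate up again for the synthesis of purines and thymidylate. ALDH18A1 turns glutamate into the precursor of proline, and PYCR1 completes it. The transcription factor ATF4, made when amino acids run short or mitochondria are stressed, is known to activate many of these genes.

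The promoters of the 4 members that passed the test between KO and control are shown so that their letters can be set beside the values. Each is the 250 bases before the start of transcription in RefSeq (GRCm38.p6), read on the strand of the gene. Capitals mark CCAAT, the CCAAT box, in either direction.
Psat1 (chr19:15925060-15925309, minus strand): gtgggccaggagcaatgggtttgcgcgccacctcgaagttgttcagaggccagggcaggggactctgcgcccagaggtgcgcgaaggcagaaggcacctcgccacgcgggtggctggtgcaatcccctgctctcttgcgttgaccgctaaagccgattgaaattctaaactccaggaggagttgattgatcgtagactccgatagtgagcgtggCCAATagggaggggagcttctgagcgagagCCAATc
Mthfd2 (chr6:83317605-83317854, minus strand): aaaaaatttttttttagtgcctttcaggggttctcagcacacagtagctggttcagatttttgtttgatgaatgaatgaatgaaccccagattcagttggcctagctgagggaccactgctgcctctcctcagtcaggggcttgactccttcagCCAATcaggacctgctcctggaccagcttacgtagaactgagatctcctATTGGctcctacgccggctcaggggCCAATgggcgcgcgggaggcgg
Mthfd1l (chr10:3972825-3973074, plus strand): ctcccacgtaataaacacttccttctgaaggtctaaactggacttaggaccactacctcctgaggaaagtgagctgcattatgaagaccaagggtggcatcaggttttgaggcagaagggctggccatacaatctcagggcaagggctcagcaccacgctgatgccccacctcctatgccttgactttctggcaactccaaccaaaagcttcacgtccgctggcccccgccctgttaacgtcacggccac
Shmt1 (chr11:60811266-60811515, minus strand): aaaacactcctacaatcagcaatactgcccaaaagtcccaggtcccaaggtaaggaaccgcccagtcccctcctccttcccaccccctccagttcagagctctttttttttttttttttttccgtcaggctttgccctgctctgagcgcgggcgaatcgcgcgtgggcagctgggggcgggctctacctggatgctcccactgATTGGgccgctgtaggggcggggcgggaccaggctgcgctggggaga

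Psat1 has a further start in the table, with no CCAAT in its 250 bases, and the window of Mthfd1l has none either. Over the 11 starts listed for the 10 members, 7 windows held CCAAT on either strand, against 33.8% of all 32851 promoter windows of that length. Mthfd2 had 3 copies. This motif was picked after the sequences had been read. Of the other motifs searched on both strands, TGATGNAA (the C/EBP-ATF element that ATF4 can bind) was found in 1 member window, that of Pycr1, and in 3.45% of all windows. CACGTG (the E-box) was found in 1, that of Aldh18a1, and in 6.02% of all. TGACNNNGC (the antioxidant response element) was found in 1, that of Phgdh, and in 10.2% of all, and Psph had a further match after its start. These 3 places are shown as 60 bases each, with the match in capitals, because they are the only upstream matches to these 3 motifs among the members. A match describes letters and not a site that is in use.
Pycr1 (chr11:120643818-120643877, minus strand): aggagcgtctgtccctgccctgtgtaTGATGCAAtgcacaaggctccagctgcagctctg
Aldh18a1 (chr19:40588489-40588548, minus strand): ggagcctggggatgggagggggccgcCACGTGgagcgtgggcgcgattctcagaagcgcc
Phgdh (chr3:98339989-98340048, minus strand): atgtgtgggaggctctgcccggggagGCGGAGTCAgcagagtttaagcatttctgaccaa

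The deleted gene itself, Mapk14, was not lower in the hearts labelled KO. Its brighter probe was at 3.52, 3.40, 3.47 and 3.67 in controls 1 to 4 and 3.74, 3.76 and 3.71 in KO 1 to 3, a log2 difference of 0.22 ± 0.12 (SE; adjusted p = 0.202 by limma). The dimmer probe differed by 0.18. Where either probe lies relative to exons 2 and 3 was not determined here, and cells other than cardiomyocytes keep the gene, so these values leave the genotype labels unchecked, and KO below means the hearts so labelled.

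In KO hearts Psat1, Mthfd2 and Mthfd1l rose and Shmt1 fell. The other 5 measured members, Phgdh, Psph, Shmt2, Mthfd1 and Aldh18a1, did not pass an adjusted p of 0.05 (limma, Benjamini-Hochberg over all 22344 genes and unnamed probes). Among the 13697 named genes 12.3% passed as higher and 15.9% as lower in KO, 28.3% in all, and over all genes and unnamed probes 25.2% passed. The share of members called, 4 of 9, is read against those shares, since a called gene is common here. The KO hearts lay above all controls in 5 of the 9 members and below all in 1, where 19.5% and 22.7% of named genes did so. Since the list was chosen with earlier results of these data known, neither comparison is a test of the set. The count of 4 members called was 0 without KO replicate 1, 1 (Mthfd2) without KO replicate 2, 2 (Psat1 and Mthfd2) without control replicate 3 or 4, 3 without control replicate 1 or KO replicate 3, where Shmt1 was lost, and 6 without control replicate 2, where Phgdh and Aldh18a1 were added. With a gene's own variance alone it was 0, and with dim probes left in it was 2. The counts over all 22344 genes and unnamed probes fell too, from 5640 to 69 without KO replicate 1 and 1138 without KO replicate 2. They were 90 with a gene's own variance alone, and 1415 of 48809 with dim probes left in. Leaving out any 1 heart moved the fold of no member by over 1.5 times. All 9 were tested, since each had a probe well above background on all 7 arrays, and no probe was saturated.

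**Figure D1:**
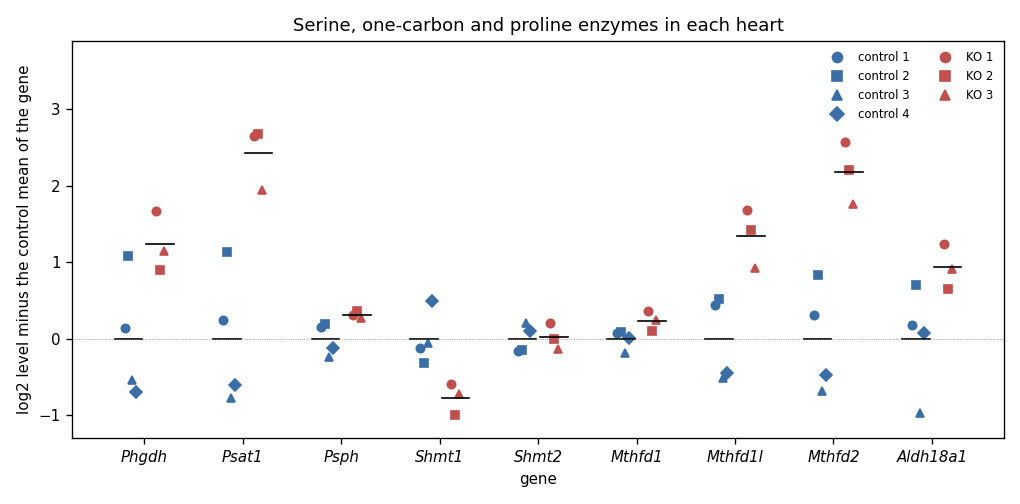
Level of each measured gene in each of the 7 hearts, on the log2 scale (y axis) minus the mean of the 4 controls of that gene (x axis, genes); blue, control, red, KO, symbols by replicate number, bars, group means. The 3 KO hearts lie above all controls for Psat1, Psph, Mthfd1, Mthfd1l and Mthfd2 and below all for Shmt1.

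Levels below are log2 processed signal relative to the 75th percentile of the array, so that 0 is the level of a probe at that percentile. Probes differ in brightness, so levels are compared between hearts and not between genes. In bulk tissue a change in the number of cells of a type and a change in RNA per cell cannot be told apart.

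Serine synthesis was led by Psat1, the aminotransferase. Its brighter probe read 0.58, 1.47, -0.44 and -0.26 in controls 1 to 4 and 3.00, 3.02 and 2.29 in KO 1 to 3. All 3 KO hearts were above the highest control, control 2. The difference was 2.43 ± 0.46 (SE, log2), or 5.39-fold, with an adjusted p of 0.0149 and an exact two-sided permutation p of 0.0571, where the smallest p that 4 against 3 hearts allow is 0.0286. The dimmer probe of Psat1 differed by 2.37, a value that rests partly on background, since only 2 of 4 controls had it well above.

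Phgdh, which catalyses the first step, was at -0.71, 0.23, -1.38 and -1.54 in controls and 0.82, 0.05 and 0.30 in KO. The groups overlapped through control 2 alone, which lay above KO 2. The difference of 1.24 ± 0.42 (SE, log2; 95% interval 0.27 to 2.22) did not pass (adjusted p = 0.0638). It passed with normexp background correction (0.96, adjusted p = 0.0378), with a variance trend and robust fit (adjusted p = 0.0490), with the row of the slide as a block (1.41, adjusted p = 0.00859) and without control replicate 2 (1.60, adjusted p = 0.0113).

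Psph, the phosphatase of the last step, was at 0.58, 0.61, 0.18 and 0.30 in controls and 0.73, 0.78 and 0.69 in KO. The KO hearts were all above the controls and close together, with an SD of 0.05 against 0.21 in controls. The difference was small, 0.32 ± 0.15 (SE, log2; 95% interval -0.03 to 0.66), and did not pass (adjusted p = 0.143). Its dimmer probe differed by 0.40. The 3 serine enzymes thus differed in size along the pathway, with the largest value at the middle step.

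Among the folate enzymes the mitochondrial dehydrogenase Mthfd2 had the largest difference. It was at -1.67, -1.14, -2.66 and -2.45 in controls and 0.59, 0.22 and -0.22 in KO. No KO heart came within the range of the controls. The difference was 2.18 ± 0.38 (SE, log2), or 4.53-fold (adjusted p = 0.0137, exact permutation p = 0.0286). With normexp, which adds an offset that draws dim probes together, it was 1.46, or 2.75-fold (adjusted p = 0.00427).

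Mthfd1l, the mitochondrial synthetase that releases formate, was at 0.05, 0.14, -0.90 and -0.83 in controls and 1.30, 1.04 and 0.54 in KO. The groups were again apart, and KO 3 was nearest to the controls. The difference was 1.35 ± 0.32 (SE, log2), or 2.54-fold (adjusted p = 0.0236, exact permutation p = 0.0286), and the dimmer probe, of another transcript, differed by 1.23 (adjusted p = 0.0533 in a fit of all probes).

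Mthfd1, the cytosolic enzyme that takes formate up, was at 2.48, 2.49, 2.22 and 2.40 in controls and 2.76, 2.50 and 2.64 in KO. The KO hearts were all above the controls, KO 2 only narrowly. The difference of 0.24 ± 0.13 (SE, log2; 95% interval -0.07 to 0.55) did not pass (adjusted p = 0.214).

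The hydroxymethyltransferases of the 2 compartments had unlike values. Shmt1, the cytosolic form, was at -1.18, -1.37, -1.11 and -0.56 in controls and -1.64, -2.06 and -1.78 in KO, with every KO heart below every control. The difference was -0.77 ± 0.21 (SE, log2; adjusted p = 0.0356, exact permutation p = 0.0286), so KO was 1.70-fold lower. The call was lost without any 1 of the 7 hearts other than control 2, and with median centring (-0.68, adjusted p = 0.0656). The dimmer probe differed by -0.46 (adjusted p = 0.117 in a fit of all probes), and its KO 2 value lay among the controls.

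Shmt2, the mitochondrial form, was at 1.76, 1.76, 2.12 and 2.01 in controls and 2.13, 1.92 and 1.79 in KO, and the groups overlapped. The difference was 0.03 ± 0.15 (SE, log2; 95% interval -0.33 to 0.38; adjusted p = 0.910). Its partners in the mitochondrial route, Mthfd2 and Mthfd1l, had differences above that interval.

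In proline synthesis Aldh18a1 was at -1.40, -0.87, -2.55 and -1.50 in controls and -0.33, -0.93 and -0.67 in KO. Control 2 again overlapped with the KO hearts, and control 3 was lowest. The difference of 0.93 ± 0.37 (SE, log2; 95% interval 0.09 to 1.78) did not pass (adjusted p = 0.0921). It passed with the row of the slide as a block (1.05, adjusted p = 0.0275) and without control replicate 2 (1.17, adjusted p = 0.0368).

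**Figure D2:**
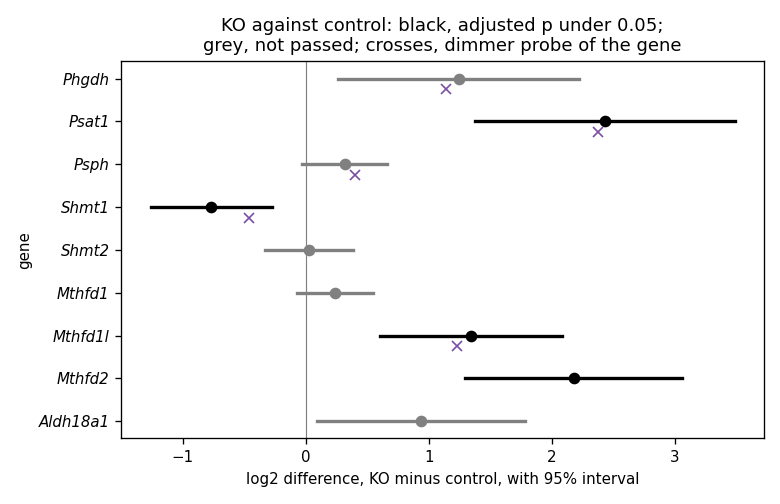
Log2 difference between KO and control (x axis) for each of the 9 measured genes (y axis), with the 95% interval of the limma fit; black points passed an adjusted p of 0.05, grey points did not, and crosses are the dimmer probe where a gene has 2. Psat1 and Mthfd2 lie at 2.43 and 2.18, Shmt1 at -0.77 and Shmt2 at 0.03.

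Within the same heart the enzymes changed by unequal amounts. The log2 ratio of Mthfd2 to Mthfd1 was higher in KO by 1.94 and that of Mthfd1l to Mthfd1 by 1.11, and the ratio of Shmt2 to Shmt1 was higher by 0.80. In each of these pairs the mitochondrial enzyme is named first, and in each no KO heart overlapped with the controls. How often the ratio of any 2 genes does so was not counted. Of single named genes 19.5% had all KO hearts above all controls and 22.7% had all below. The ratio of Shmt2 to Shmt1 was higher through the lower Shmt1, since Shmt2 itself differed by 0.03. The ratio of Mthfd2 to Mthfd1l was higher by 0.83, with an SD of 0.22 in controls and 0.05 in KO. The ratio of Psat1 to Phgdh was higher by 1.19 and that of Psat1 to Psph by 2.11. The 6 pairs were chosen with the values of the members known, so these differences are a description with no test. Since each ratio is taken within an array, dividing a whole array by a single factor does not change it. Quantile scaling and background correction can. With normexp background correction Mthfd2 differed by 1.46 and Mthfd1l by 1.17, closer together than the 2.18 and 1.35 of the main fit.

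**Figure D3:**
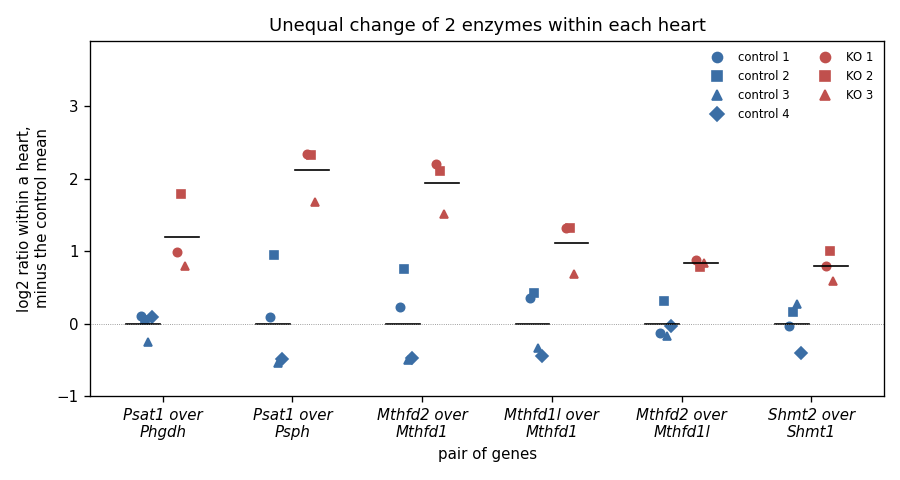
Log2 ratio of 2 enzymes within each heart (y axis), minus the mean of the 4 controls, for 6 pairs (x axis); blue, control, red, KO, symbols by replicate number, bars, group means. The KO hearts lie above all controls in each of the 6 pairs, with group differences from 0.80 to 2.11. The share of all gene pairs that do so was not counted.

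Most members, but not Shmt1 and Shmt2, had a similar order of controls, and the order of KO hearts was mixed. How often all genes had such orders was not counted, so they are not shown to be particular to the members. Control 2 was the highest control in 7 of the 9 genes and control 3 was the lowest heart in 6. KO 1 was the highest KO heart in 7, and the lowest was KO 3 in 5 and KO 2 in 4. Controls 1 and 2 lay with KO 1 in row 1 of the slide, and controls 3 and 4 with KO 2 and KO 3 in row 2. The mean of controls 1 and 2 exceeded that of controls 3 and 4 by 1.38 for Psat1, 1.22 for Phgdh, 1.15 for Mthfd2, 0.96 for Mthfd1l and 0.89 for Aldh18a1, and was lower by 0.44 for Shmt1 (control 3 and 4 at -0.84, controls 1 and 2 at -1.28). Values within a row were not tested. Within row 1 the difference between KO and control was 1.97 for Psat1, 1.99 for Mthfd2, 1.21 for Mthfd1l and -0.37 for Shmt1. Within row 2 it was 3.01, 2.56, 1.65 and -1.08 for the same genes. For these 4 called genes every KO heart lay beyond every control, so the same direction in both rows was fixed in advance. Row 1 holds only 1 KO heart, KO 1, and the values were larger in row 2. With row as a block, Psat1 differed by 2.59, Mthfd2 by 2.33, Mthfd1l by 1.48 and Shmt1 by -0.79. Under that block 6 members passed, while over all 22344 genes and probes 8402 passed, or 37.6%, against 25.2% without it.

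Markers of other cells moved with some of these values, and their part in the members' differences was not tested. Of 11 markers of cycling cells 0 passed (limma with Benjamini-Hochberg adjustment; 0 at an unadjusted p under 0.05 too), with a median difference of 0.98. Their summed signal ran from 11.8 to 43.8 times the 75th percentile in controls and from 21.1 to 47.5 in KO. Mcm5, a replication helicase subunit, was at 1.12 and 1.38 in controls 1 and 2, -1.17 and -0.52 in controls 3 and 4, and 1.77, 0.84 and 1.79 in KO. Mki67, a proliferation antigen named for the spread of its values, was at 2.25, 2.82, -0.25 and 0.04 in controls and 2.46, 0.44 and 2.87 in KO. KO 2 was the lowest KO heart for both markers. Among the members it was the lowest KO heart for Phgdh, Shmt1, Mthfd1 and Aldh18a1, the highest for Psat1 and Psph, and between the others for Shmt2, Mthfd1l and Mthfd2.

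**Figure D4:**
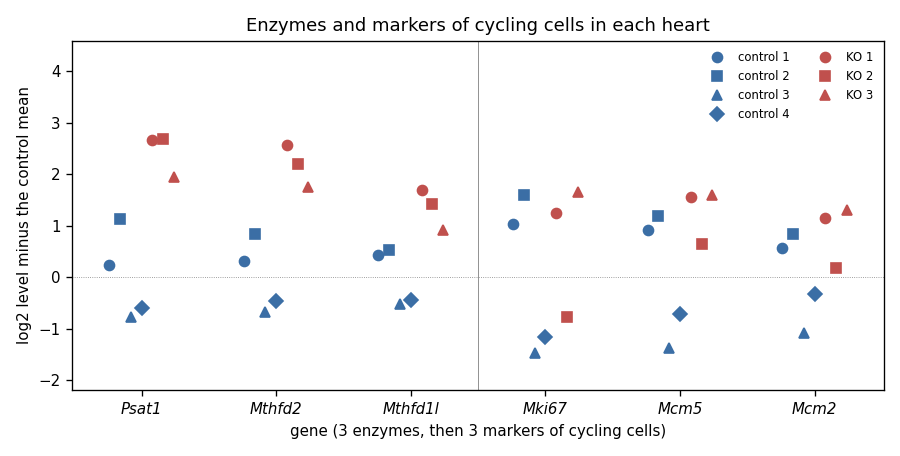
Levels of 3 enzymes and 3 markers of cycling cells (x axis) in each heart, on the log2 scale minus the control mean (y axis); blue, control, red, KO, symbols by replicate number. Controls 1 and 2 lie above controls 3 and 4 for all 6 genes, and KO 2 lies within the range of the controls for all 3 markers. For Mki67 KO 1 lies within that range too, and KO 3 is just above it.

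Of 8 macrophage markers 3 rose, Cd14, Fcgr1 and Mrc1, with summed signals of 108 to 118 in controls and 113 to 156 in KO. The other 5 did not pass, and over the list the differences ran from -0.56, for Itgam, to 1.67. Itgam and Csf1r were the brightest markers of the list in every heart, so the sum rests largely on them. Of 6 neutrophil markers 5 rose (114 to 176 and 101 to 177), of which Mmp9, Cxcr2 and Mmp8 were not well above background on any control array. Most of that sum is Csf3r, the marker that did not pass (-0.23), so it does not follow the other 5. Mmp9, Cxcr2 and Mmp8 passed the filter on low signal through the KO hearts alone, so their rise is no support. S100a8 and S100a9 remain of the markers that rose. Of 8 cardiomyocyte markers 3 fell, Pln, Tnni3 and Ryr2, and all 8 were well above background on every array (5151 to 7399 and 4396 to 5078). Of 8 fibroblast markers only Pdgfra passed, and it rose (343 to 582 and 276 to 662). The others went both ways: Col1a1, Col1a2 and Col3a1 were at 0.72, 0.53 and 0.49, and Dcn, Lum, Tcf21 and Ddr2 at -0.71, -1.08, -0.35 and -0.11. Of 7 endothelial markers Kdr fell (40.0 to 65.4 and 36.5 to 43.8). Of 6 smooth muscle markers, which ran from -0.83 to 0.76, only Rgs5 passed, and it fell (61.1 to 115 and 102 to 114). Of 4 erythroid markers 3 fell (514 to 724 and 306 to 488). Of 7 liver markers tested 6 fell, from summed signals of 1.46 to 4.65 in controls to 0.30 to 0.45 in KO, with Alb, Fgb, Fgg and Fabp1 not well above background on any KO array and Apoa1 and Mup20 on no array at all. Those 4 passed the filter on low signal through the controls alone. Beside the counts of these marker lists, 12.3% of all named genes passed as higher and 15.9% as lower.

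Of 18 tested genes of folate carriers, folate enzymes and the methionine cycle 4 rose and 1 fell, with a median difference of 0.00, against -0.06 over all genes and probes tested. Among all named genes 12.3% passed as higher and 15.9% as lower. The counts of this list and of those that follow stand beside these shares and were not tested against them. Slc19a1, the reduced folate carrier, was at 0.27, 0.31, 0.05 and 0.26 in controls and 2.06, 2.28 and 0.91 in KO, a difference of 1.53 ± 0.31 (SE, log2; adjusted p = 0.0166). Fpgs, which adds the glutamate tail that holds folate in the cell, rose by 1.42 ± 0.26 (adjusted p = 0.0147).

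Aldh1l2, the mitochondrial enzyme that turns formyl folate into carbon dioxide, rose by 0.85 ± 0.25 (adjusted p = 0.0436), but with normexp it was at 0.48 and did not pass (adjusted p = 0.0503), and it passed in 8 of the 18 alternatives run. Its cytosolic form Aldh1l1 was at -0.32 (adjusted p = 0.469), and the difference between the 2 was not tested. Mat2b, the regulatory subunit of S-adenosylmethionine synthesis, fell by 0.59 ± 0.14 (adjusted p = 0.0246). Mthfd2l, the other mitochondrial dehydrogenase, differed by 0.10 ± 0.15 (adjusted p = 0.625). Tyms, which makes thymidylate, was at -0.27 and did not pass (adjusted p = 0.374).

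Of 15 tested genes of serine and glycine transport, cleavage and use 3 rose and 2 fell (median 0.28). Sfxn1, which carries serine into mitochondria, rose by 0.79 ± 0.18 (adjusted p = 0.0214), and Sptlc2, a subunit of the transferase that joins serine to a fatty acid in sphingolipid synthesis, by 0.92 ± 0.17 (adjusted p = 0.0150). Slc1a4, a plasma membrane carrier of serine, rose by 0.46 (adjusted p = 0.0450), and passed in 8 of the 18 alternatives run. Srr, which turns L-serine into D-serine, fell by 1.06 ± 0.17 (adjusted p = 0.0125). Dld, which serves the glycine cleavage system and also pyruvate dehydrogenase, fell by 1.08 ± 0.22 (adjusted p = 0.0172).

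Purine synthesis, the main user of formyl folate, moved in both directions, with 3 of 10 genes higher, 2 lower and a median of 0.24. Atic, which uses formyl folate in the last steps, rose by 0.75 ± 0.16 (adjusted p = 0.0187), and Impdh2 and Adss of the guanine and adenine branches by 0.60 and 0.76. Adsl and Paics fell by 0.62 and 0.56. Gart, the other enzyme that uses formyl folate, was at 0.45 and did not pass (adjusted p = 0.133).

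In proline metabolism 1 of 10 other genes rose and 1 fell, with a median of -0.21. Aldh4a1, an enzyme of the breakdown of proline to glutamate, was at 3.18, 2.81, 3.74 and 3.87 in controls and 2.15, 1.91 and 2.77 in KO, a difference of -1.12 ± 0.31 (SE, log2; adjusted p = 0.0344). Every KO heart was below every control. Prodh, the first enzyme of breakdown, was at -0.43 (adjusted p = 0.306).

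Of 23 tested genes of the integrated stress response and known ATF4 targets outside the members 8 rose and 2 fell, with a median of 0.40. The shares among all named genes were 12.3% higher and 15.9% lower, and the list was chosen with earlier results of these data known. Atf4 itself was at 5.92, 5.95, 5.80 and 5.79 in controls and 6.91, 6.99 and 6.11 in KO, a difference of 0.80 ± 0.22 (SE, log2; adjusted p = 0.0343), with KO 3 nearest to the controls. Asns, which makes asparagine, rose by 1.26 ± 0.27 (adjusted p = 0.0184), and Slc3a2, the heavy chain of amino acid exchangers, by 0.93 ± 0.18 (adjusted p = 0.0161). Slc7a5, the light chain that pairs with it, rose by 2.02 ± 0.42 (adjusted p = 0.0176), but its probes disagreed in size: the mean over them was 0.77 and did not pass (adjusted p = 0.0726), and with normexp the value was 1.40. Gars, the glycyl-tRNA synthetase, rose by 0.49 (adjusted p = 0.0278).

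Other well known members of the response did not pass: Ddit3 was at -0.43, Trib3 at 0.51, Chac1 at 0.65 and Sesn2 at 0.16. Vldlr and Stc2 fell by 1.05 and 0.47, and passed in 9 and 7 of the 18 alternatives run. Across these 5 lists the count of genes called was 0 in each without KO replicate 1, and without KO replicate 2 it was 1 for the folate list, 1 for the serine and glycine list and 0 for the others. With no filter on dim probes it was 2, 2, 0, 0 and 0. Over all 22344 genes and unnamed probes 69 passed without KO replicate 1 and 1138 without KO replicate 2, and with no filter 1415 of 48809 passed.

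**Figure D5:**
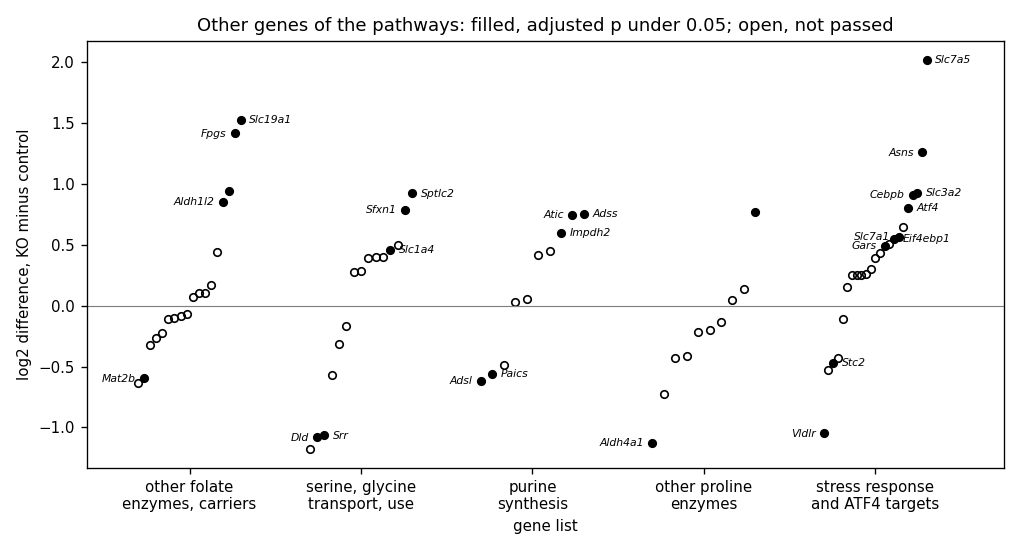
Log2 difference between KO and control (y axis) of each tested gene in 5 lists of related genes (x axis); filled points passed an adjusted p of 0.05, most of them named, and open points did not. The stress response list has 8 filled points above 0 and 2 below, and the other lists have both.

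The genes whose values over the 7 hearts came nearest to each called member were found by the root mean square difference of gene-centred log2 values, over 13081 named genes. For Psat1 they were Il7r (0.14), Actn1 (0.18) and Efhd2 (0.20), against a median of 1.38 over all, and for Mthfd2 they included Slc39a6 (0.19) and Il7r (0.20), against 1.22. Psat1 and Mthfd2 were each other's nearest member, at 0.21. For Mthfd1l they were Msn (0.09), Bicd1 (0.10) and Snx7 (0.11), against 0.83, and for Shmt1 Vars2, Pde8b and Wnt5a, each at 0.10, against 0.51. Il7r, at a difference of 2.36, was at 0.68 with normexp, where Psat1 was at 2.25 and Mthfd2 at 1.46, and Bicd1, at 1.17, was at 0.58. These are the nearest of many genes over 7 hearts and are given as a description.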

How the data were processed

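Groups were taken from the sample titles, and hearts are taken as separate animals. The series' design text gives 4 hearts for control and KO, and 3 KO hearts were analysed here. Per the file headers, all arrays lay on 1 slide and were quantified in Feature Extraction 11.0.1.1 (Agilent). The deposited intensity is the background-subtracted processed signal of 62976 spots per array, and 46.0% to 49.7% of 55681 probes were well above background. The deposited value table holds log2 values centred on each probe's median over the 7 arrays; over the 15000 brightest probes its columns and the scanner values, centred alike, had correlations of 0.986 to 0.998, higher values mean more signal, the target of its scale stays unknown, and its column medians were 0.00790 in control 4, -0.00212 in KO 2 and 0 in the others.

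Signals were put on the log2 scale after division by the 75th percentile of all spots other than controls on the same array. Outlier spots were left out and spots of a probe averaged. A probe was kept if 3 or more arrays of either group had it well above background (26576 probes), named through RefSeq accessions (28026 of 55681 probes matched a symbol), and the brightest kept probe stood for its gene. Group differences were fitted with limma 3.58.1 under R 4.3.3 (lmFit, eBayes, Benjamini-Hochberg over 22344 features). Members were also tested one by one over all 35 splits of the hearts (exact permutation, two-sided). The fit was tested on simulated data, in which 200 of 22302 features changed, fewer than were called here. It recovered 0% of changes of 0.5 (log2), 22% of changes of 1, 92% of 2 and 96% of 3. Members that did not pass are therefore not shown to be unchanged. The number of arrays limits the precision.

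The members and lists were chosen with earlier results of these data known. Named genes were all members, up to 4 of the called genes with the lowest p in each pathway list, up to 2 per marker list, and the 3 nearest patterns of each called member; Mki67, Mcm2, Aldh1l2, Slc1a4, the pairs of members, the CCAAT motif, the uncalled genes set beside called ones and the remaining called genes of small counts were added after their values were seen. Some genes that this rule selects are not reported here. Alternatives were normexp (offset 50, on median spot signals, since the files hold no mean spot signal), quantile and median scaling, other filters, the deposited table, probe means, other variance models, blocks for replicate number or for slide row, each heart left out and a threshold of 0.1.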

Additional observations from a re-analysis of the deposited data

How the results depend on the processing

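All members other than Shmt2 kept their direction under every alternative run. The sign of Shmt2, which was never called, turned without control replicate 1 (-0.03), control replicate 2 (-0.02) and KO replicate 1 (-0.0654), reached 0.11 without KO replicate 3, and was 0.36 within slide row 1 and -0.22 within row 2. The count of 4 called members was 2 with no filter and 0 with an unmoderated test, and ran from 0 to 6 with 1 heart left out. With the replicate number as a block it was 0, and 9 features passed in all. The deviations of same-numbered hearts correlated at 0.18, -0.22 and -0.20, and those of hearts with different numbers at -0.32 to 0.39. With so few hearts these values cannot decide whether the numbers pair them. Control 4, whose number no KO heart has, adds nothing to the fit with that block. Over all features the 5640 calls became 1415 with no filter, 90 with an unmoderated test, 8731 at a threshold of 0.1, and 69 to 6970 with 1 heart left out. Median centring moved the split of calls from 2284 higher and 3356 lower to 2284 and 2655, shifting the median difference from -0.06 to 0.03. Of the 9 measured members 4 had an exact permutation p of 0.0286 (Shmt1, Mthfd1, Mthfd1l and Mthfd2), against 2 with normexp and 2 with median centring. The same count over all genes was not made. Beside it, the KO hearts lay above all controls in 19.5% of named genes and below all in 22.7%. Low signal over background bears on some sizes: the fold of Mthfd2 was 4.53, and 2.75 with normexp.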

Other observations

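Of 22 genes of the members and the 5 related lists that were called higher, KO 3 was the lowest of the KO hearts in 17, KO 2 in 4 and KO 1 in 1. The same count over all genes called higher was not made. Transsulfuration, the route from serine to cysteine, was not called: Cth was at -1.18 ± 0.38 (SE, log2; adjusted p = 0.0550 by limma), with every KO heart below every control, and Cbs at -0.57 (adjusted p = 0.255). Of named genes 22.7% had every KO heart below every control. The levels of Cth in KO 1 to 3 were -4.07, -4.06 and -3.78. The lowest levels well above background on those arrays were -4.33, -4.32 and -4.16, so the size for Cth rests partly on background. Gldc, the decarboxylase of glycine cleavage, was well above background on all 7 arrays and differed by 0.50 (adjusted p = 0.192), while Amt of the same system was not well above background on any. Mtrr, seen above background in 2 KO hearts and no control, was not tested.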
